A study of Mus musculus with 2 samples.

Results

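Most of the genes described here encode small nuclear ribonucleoprotein (snRNP) and SR proteins of the spliceosome, the machinery that removes introns from pre-mRNA. Selection by symbol also took genes with other roles, among them *Lsm1*, *Lsm10*, *Lsm11*, *Lsm14a* and *Lsm14b*. All members are called spliceosome genes below, and the sums include them. Members were the gene symbols beginning with *Snrp*, *Sf3a* or *Sf3b*, or with *Srsf*, *Lsm* or *Prpf* and a digit, which selected 56 of the 17774 genes in the counts. Of these, 53 had a count in at least 3 cells and entered the comparison. *Prpf4*, *Prpf6* and *Sf3a2* did not, and the core Sm genes *Snrpd3* and *Snrpf* were not analysed here. The cells were single GFP-positive cells, labelled as cones, sorted from retinae of *Pde6c*cpfl1 mice crossed with the *Chrnb4*.eGFP line (*Pde6c*.GFP, on C57BL/6), at postnatal day (PN) 24. Both groups carried the *Pde6c* mutation, which causes early cone loss, and GFP was driven by the *Chrnb4* promoter rather than by a cone gene. One group was uninjected (82 cells kept of 85). The other (64 of 66) had received a single intravitreal injection of 10 µM GSK-J4, an inhibitor of the H3K27 demethylases, at PN14, with collection 10 days later. The comparison asked how transcription in GFP-sorted cells differed after inhibition of H3K27 demethylation.

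There was 1 library on 1 plate per group, so treatment, plate and animal cannot be told apart, and no sham-injected library was analysed here. No test was possible, and intervals cover counting error only. The uninjected library held 1113424 counts (median 8118 per cell) and the GSK-J4-treated library 208578 (median 2335.5). Mitochondrial genes took a median of 0.949% and 0.0145% of the counts of a cell. The 11 cone markers took 2.59% of uninjected counts and 0.213% of treated counts. *Opn1sw*, *Gngt2*, *Cngb3*, *Pde6c* and *Guca1a* had 0 counts in the treated library, and 50 of its 64 cells had no count of any cone marker, against 0 of 82 uninjected cells. The treated library therefore went against its cone label by these markers. Its cell names also hold the word adult, while its label gives PN24. Of the other retinal cell types, the 11 rod markers had 0.355% and 0.0259%, the 9 Müller glia markers 0.107% and 0.0360%, the 6 bipolar markers 0.00997% and 0.0144%, and the 6 amacrine markers 0.00476% and 0.0125%. The part of depth, cell identity and RNA quality in the values below was not tested.

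Splicing begins when the U1 snRNP binds the 5′ splice site and the U2 snRNP the branch point. The U4/U6.U5 tri-snRNP then joins, and rearrangement of its RNAs forms the catalytic centre. Each snRNP is built on a ring of Sm proteins, or of the related LSm proteins in U6, while SR proteins bind exons and help to choose splice sites. Photoreceptors depend closely on this machinery, and dominant mutations in several tri-snRNP genes cause retinitis pigmentosa, a degeneration of the retina.

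Promoters of these genes were searched for the letters of common elements. RefSeq windows of 250 bases before the start site (GRCm38.p6) were found for 47 of the 56 genes, in 60 windows. The 7-base letters CCGGAAG or their reverse complement CTTCCGG, the core bound by ETS-family factors, occurred in 33.3% of these windows, in 6.91% of all 32851 mouse promoter windows of that length, and in 10.6% of the windows of genes past the count filter. Member windows held a median of 19 CpG, against 6 in all windows and 13 in those of genes past the filter. The CCAAT letters were in 33.3% and 33.8% of member and all windows, and TATAAA in 8.33% and 12.4%, counting both strands. Among the members, the ETS letters stood in 26.3% of the 19 windows of genes with a log-fold under −0.3 and in 36.6% of the 41 windows of the others. Such a match describes the letters only. Promoter windows of 3 members with contrasting counts are printed because they stand beside the results that follow. *Snrpa* and *Sf3b6* had no count in treated cells, and *Lsm11* had the highest log-fold of all members. Capitals mark the ETS letters, which the *Sf3b6* window holds and the other windows shown do not. The *Sf3b6* window is cut before the first annotated exon.
Snrpa, chr7:27196272-27196521, minus strand: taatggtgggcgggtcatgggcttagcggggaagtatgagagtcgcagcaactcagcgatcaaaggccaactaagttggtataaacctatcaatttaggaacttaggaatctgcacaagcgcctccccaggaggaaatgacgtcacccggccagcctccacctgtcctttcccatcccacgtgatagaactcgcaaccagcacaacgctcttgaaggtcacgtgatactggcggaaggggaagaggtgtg
Sf3b6, chr12:4817358-4817543, plus strand: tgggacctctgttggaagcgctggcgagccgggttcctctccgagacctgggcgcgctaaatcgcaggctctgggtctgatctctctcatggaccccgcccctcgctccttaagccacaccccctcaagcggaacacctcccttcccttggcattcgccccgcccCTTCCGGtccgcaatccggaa
Lsm11, chr11:45944936-45945185, minus strand: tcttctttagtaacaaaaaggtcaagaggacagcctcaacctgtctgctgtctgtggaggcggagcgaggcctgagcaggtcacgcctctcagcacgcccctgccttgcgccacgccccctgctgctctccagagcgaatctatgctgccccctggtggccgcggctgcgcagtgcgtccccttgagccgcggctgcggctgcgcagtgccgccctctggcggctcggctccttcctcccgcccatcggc

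Taken over all members, spliceosome transcripts formed a smaller share of the counts of treated cells. The 53 genes had 3631 counts in uninjected cells, or 0.326% of the library (95% Clopper-Pearson interval 0.316 to 0.337). They had 336 counts in treated cells, or 0.161% (0.144 to 0.179), a share 2.02 times as high in uninjected cells. The uninjected cells ranged from 0% to 1.34% with a median of 0.296%, and the treated cells from 0% to 2.81% with a median of 0.106%, so the cells of the libraries overlapped widely. Treated cells without any cone marker count had 0.138% (0.119 to 0.159, 50 cells), and the 14 cells with one had 0.208% (0.176 to 0.245), both below the uninjected value. The cells without and with a marker count also differed in depth, with medians of 1826.5 and 3839.5 counts per cell.

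Fewer of the genes were seen in treated cells, whose libraries also held fewer counts per cell. The number of spliceosome genes with a count ranged from 0 to 37 per uninjected cell (median 10) and from 0 to 11 per treated cell (median 2). At least 1 was found in 80 of 82 uninjected cells and in 49 of 64 treated cells. When each cell was thinned to 867 counts, which left out 1 uninjected and 14 treated cells, the mean was 3.59 spliceosome counts per uninjected cell and 1.56 per treated cell, and 67 of 81 and 35 of 50 cells had any. These genes are used by every cell type, so no cell type could give a background level for stray RNA.

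**Figure D1:**
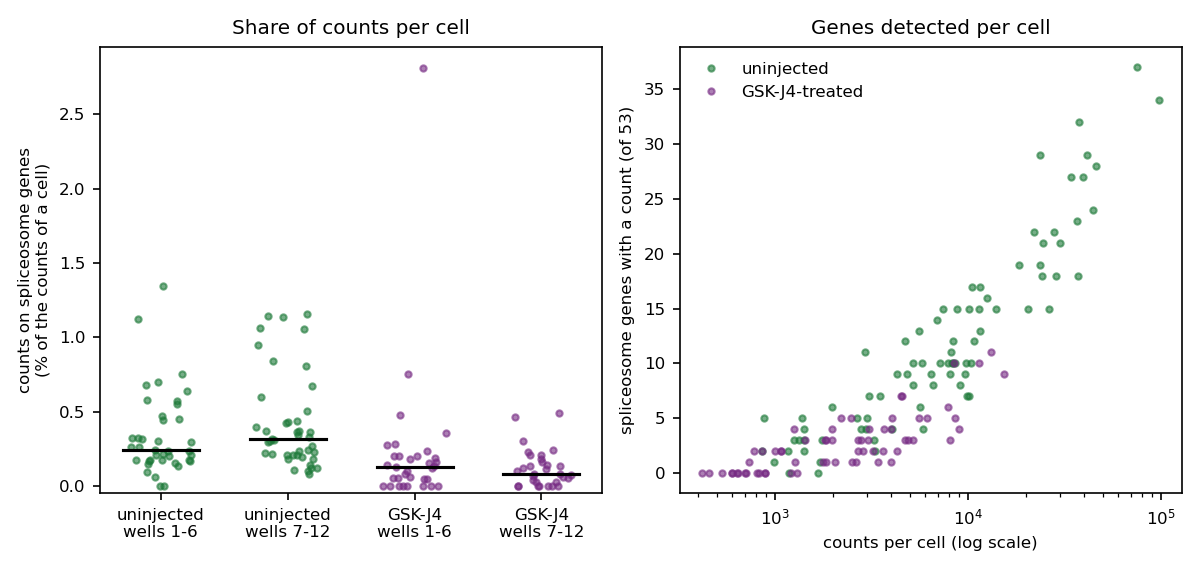
Left, share of the counts of each cell on the 53 spliceosome genes (percent), by library and by side of the 96-well plate (wells of columns 1 to 6 or 7 to 12), with the median as a bar. Right, number of the 53 genes with a count against the counts of the cell on a log axis. Uninjected cells had a median share of 0.296% and treated cells 0.106%, and the treated cells held at most 11 of the genes, against up to 37 in uninjected cells.

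Changes of single genes were described by the log-fold, the natural log of the mean over cells of counts per 10000 plus 1, treated minus uninjected. The limit of 0.3 was that of the study, but its further limit on P and its batch correction were not applied. Numbers of genes beyond the limit therefore cannot be set against its numbers of differentially expressed genes. The added 1 makes this scale understate the change of low genes. Of all 15947 genes past the filter, 11.8% were lower and 12.6% higher beyond the limit. Of the 53 spliceosome genes, 19 (35.8%) were lower and 2 (3.77%) higher. The higher genes were *Lsm1*, which does not act in splicing, and *Lsm11* of the U7 snRNP, which processes histone mRNA. The median log-fold was −0.18, against 0.033 over all genes. Among genes found in 10% or more of the cells of one or the other library, 24% were lower and 20.4% higher, and the same 19 and 2 genes made up 45.2% and 4.76% of the 42 spliceosome genes that passed. Since 34 of those 42 passed through the uninjected library alone, that step favours genes that are lower after treatment. The log-fold interval lay wholly below 0 for *Lsm4*, *Snrpb*, *Snrpa* and *Lsm6*, and above 0 for *Lsm1*, with the other 48 crossing it. The ratio of treated to uninjected share was formed for the 41 genes with counts in both libraries. Its interval lay below 1 for 12 genes, above 1 for 6 and included 1 for 23.

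Counts in the treated library were small. Of the 56 genes, 14 had no count there, 25 had 1 to 3 counts, and 9 had over 10. Among genes past the filter, 12 of the 53 had no treated count, beside 2344 of all 15947. In 52 genes the uninjected library held more counts, and the treated library held more for *Lsm11*, *Srsf9*, *Srsf12* and *Prpf4*. These raw counts are not scaled to the library totals of 1113424 and 208578, so they in part restate the difference in depth. For the 53 genes past the filter, 146 of the 176 gene-by-cell values above 0 in treated cells were a single count, against 540 of 985 in uninjected cells. Single cells also set some totals. Of these 53 genes, 41 had treated counts and 53 uninjected counts, and 1 cell held at least 50% of them in 24 and 10 genes. A gene with a single count always meets this mark, so these numbers in part restate how sparse the counts were. Among genes with over 10 counts in the library, 4 of 9 treated and 6 of 44 uninjected met it. Because the log-fold weights cells alike and the share of the library does not, the directions differed for 7 genes. Among these, *Lsm7*, *Prpf18*, *Srsf4* and *Srsf11* had a negative log-fold with a higher treated share.

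**Figure D2:**
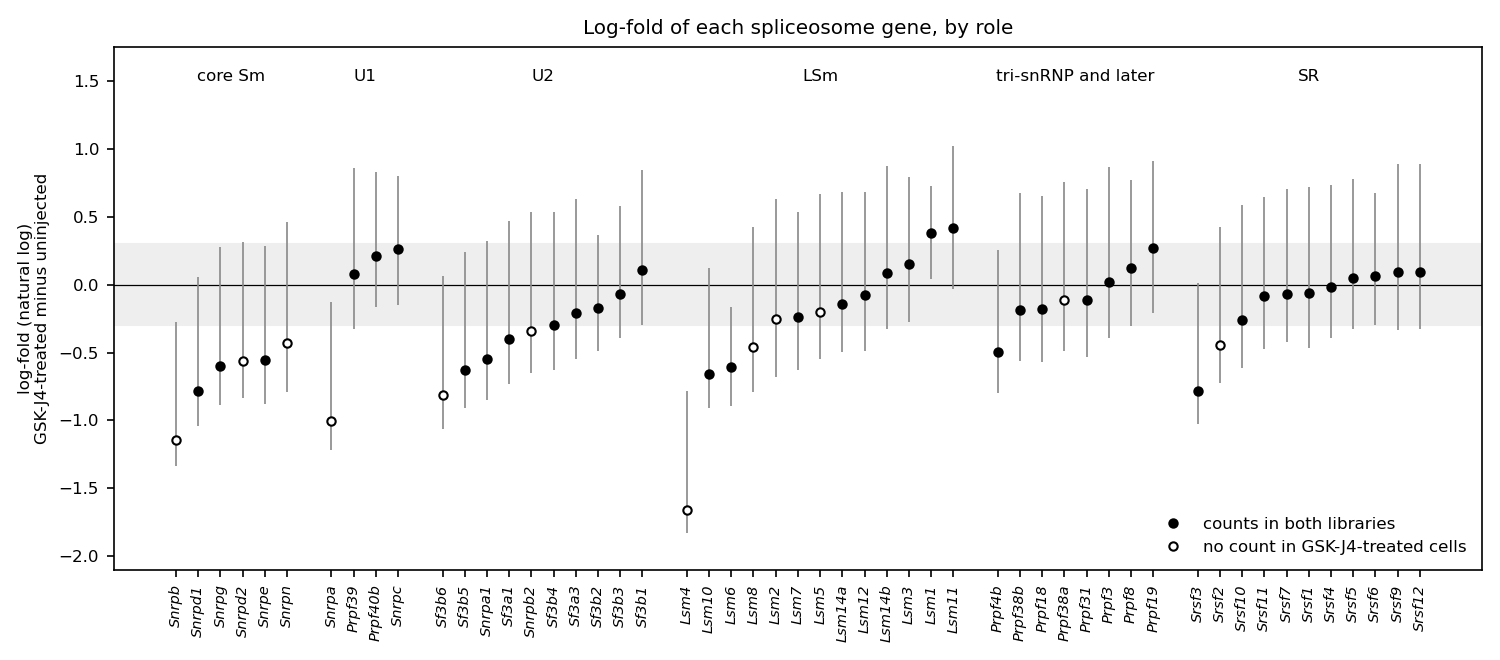
Log-fold (natural log, GSK-J4-treated minus uninjected) of 52 spliceosome genes, ordered within each role group, with 95% counting intervals as lines and the range within the limit of 0.3 shaded. Open circles mark genes without a count in treated cells. All 6 core Sm genes lie below the shaded range, from −1.15 to −0.43, and only *Lsm1* and *Lsm11* lie above it.

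The core Sm proteins, which form the ring around the U1, U2, U4 and U5 snRNAs, were the only role group in which every gene was lower beyond the limit (6 of 6), with a median log-fold of −0.58. They shared 493 counts in uninjected cells (0.0443%) and 6 in treated cells (0.00288%), a share 15.4 times as high in uninjected cells. *Snrpb*, encoding SmB, had 172 counts in 36 of 82 uninjected cells and 0 in treated cells, at least 10.7-fold lower when 0 is set at a floor of 3 counts over the library, with a log-fold of −1.15. *Snrpd1* (SmD1) had 85 counts in 37 uninjected cells and 2 in 2 treated cells, a share 7.96 times as high in uninjected cells (2.14 to 66.8). *Snrpg* (SmG) had 98 counts in 31 cells and 1 count, a ratio of 18.4 (3.22 to 732). The 3 genes were thus found in 37.8% to 45.1% of uninjected cells and at most 3.13% of treated cells, which had fewer counts. After thinning they were in 7.41% to 8.64% of uninjected and at most 2% of treated cells, with overlapping intervals. *Snrpd2* (SmD2) had 62 and 0 counts and *Snrpe* (SmE) 38 and 3. *Snrpn*, the imprinted neuronal relative of SmB, had 38 and 0. *Snrpb*, *Snrpd1* and *Snrpg* were beyond the limit under all 10 alternative settings. *Snrpe* was not under 5 of them, down to −0.081 in wells of columns 7 to 12, and its share ratio of 2.37 (0.753 to 12) included 1. *Snrpn* was within the limit under 2 settings and *Snrpd2* under 1. *Snrpb* and *Snrpn* are close in sequence and *Snrpn* overlaps other annotated transcripts, so the division of reads between them is uncertain.

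The 5 U1 genes that the symbol rule selected did not move as a group. The U1-70K gene *Snrnp70* lies outside that rule and had 359 and 11 counts (log-fold −0.53). *Snrpa*, the U1 A protein that binds a stem-loop of U1 RNA, had 214 counts in 41 of 82 uninjected cells and none in 64 treated cells, at least 13.4-fold lower with a log-fold of −1.01. Its exons overlap those of the antisense gene *BC024978*, and the counting was not stated to use strand. *Snrpc*, the U1 C protein that stabilizes pairing with the 5′ splice site, stood apart from it. It had 70 counts in 21 uninjected cells and 29 counts in 15 treated cells, 25.6% and 23.4% of cells, and a treated share 2.21 times as high (1.38 to 3.45). Its log-fold was 0.26, within the limit, and −0.038 after thinning, and 14 of the 29 treated counts came from 1 cell. *Prpf40b*, a U1-associated factor, had 21 and 14 counts, a treated share 3.56 times as high (1.67 to 7.34), but 10 of the 14 came from 1 cell. *Prpf39* (9 and 3) was too sparse to compare. Without *Snrnp70*, the 5 genes took 0.0286% (0.0255 to 0.0319) and 0.0230% (0.0170 to 0.0305) of counts. With *Snrpa* the only one of them beyond the limit, their median log-fold was 0.076.

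The U2 snRNP genes, whose products bind the branch point, had a median log-fold of −0.32, with 5 of 10 lower beyond the limit and none higher. Their share was 0.0771% in uninjected and 0.0249% in treated cells, 3.09 times as high in uninjected cells. The SF3b complex, which holds the branch-point adenosine, varied among its own subunits. *Sf3b6*, a subunit that contacts the branch point, had 186 counts in 33 uninjected cells and 0 in treated cells, at least 11.6-fold lower. *Sf3b5* had 88 and 1, a ratio of 16.5 (2.88 to 658). Log-folds of the large subunits were within the limit, but not under every setting. *Sf3b3* had 125 counts in 29 cells and 17 in 9 cells, with a log-fold of −0.067, and its exons overlap those of *Cog4*. *Sf3b2* had 208 counts in 34 cells and 24 in 7 cells (log-fold −0.17), though 107 of the 208 and 13 of the 24 came from 1 cell each, and without these the log-fold was −0.61, near the −0.62 of *Sf3b5*. With median-ratio scaling *Sf3b2* and *Sf3b3* were at −0.62 and −0.43. *Sf3b1*, the scaffold subunit that is often mutated in cancers, had 24 and 5 counts and a log-fold of 0.11. *Sf3b4* had 40 and 2, with a log-fold of −0.297 just inside the limit. The U2-specific *Snrpa1* (65 and 1) and *Snrpb2* (28 and 0) and the SF3a subunit *Sf3a1* (51 and 1) were lower beyond the limit, and *Sf3a3* (43 and 1) was not. *Sf3a2* had 2 counts in all.

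The LSm proteins held both the lowest and the highest log-folds. *Lsm4*, a subunit of the ring shared by U6 RNA and the cytoplasmic mRNA decay complex, had the lowest. Its 277 counts came from 48 of 82 uninjected cells, with 45 in the highest cell, and no treated cell had one. The log-fold was −1.66 (−1.83 to −0.78), at least 17.3-fold lower. *Lsm6*, another subunit of both rings, had 393 counts in 51 cells and 43 in 14 cells, a log-fold of −0.61 (−0.89 to −0.17). With only wells of columns 1 to 6 its log-fold was 0.22, and 27 of the 43 treated counts came from 1 cell. *Lsm8*, which is particular to the nuclear U6 ring, had 42 and 0 counts, all 42 from wells of columns 7 to 12. The small subunits *Lsm2* (7 and 0) and *Lsm5* (15 and 0) were sparse, *Lsm7* had 17 and 8, and *Lsm3* had 36 and 6 with a log-fold of 0.15.

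*Lsm1*, which takes the place of Lsm8 in the cytoplasmic decay ring and does not act in splicing, had 243 counts in 51 of 82 uninjected cells and 66 in 18 of 64 treated cells. Its log-fold was 0.38 (0.041 to 0.73), the only one with an interval above 0. Of its counts, 98 of the 243 and 21 of the 66 came from 1 cell each. This direction was not stable, and the log-fold was −0.33 without its highest cell in each library, −0.16 after thinning, −0.15 with median-ratio scaling, −0.58 in cells with at least 500 genes and −0.55 in wells of columns 7 to 12. Before thinning, *Lsm1* was found in a smaller part of treated cells, 28.1% against 62.2%. After thinning this did not hold, with 12% (4.53 to 24.3) of treated and 7.41% (2.77 to 15.4) of uninjected cells.

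*Lsm10* and *Lsm11* replace 2 Sm proteins in the U7 snRNP, which processes histone mRNA, and they differed in direction. *Lsm10* had 195 counts in 28 uninjected cells, 122 of them in 1 cell, and 3 in treated cells, with a log-fold of −0.66. *Lsm11* had 9 counts in 6 uninjected cells and 13 in 10 treated cells, or 7.32% and 15.6% of cells, with a treated share 7.71 times as high (3.05 to 20.4) and a log-fold of 0.42 (−0.029 to 1.02). After thinning, 1 uninjected cell and 2 treated cells had a count. When the highest cell of each gene was left out, no spliceosome gene was higher beyond the limit, against 8.27% of all genes. *Lsm12*, *Lsm14a* and *Lsm14b* had 30 and 4, 27 and 1, and 5 and 3 counts. Lsm14 proteins act in mRNA storage bodies rather than in splicing. Together the 13 LSm genes took 0.116% and 0.0705% of counts, with 4 lower and 2 higher.

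**Figure D3:**
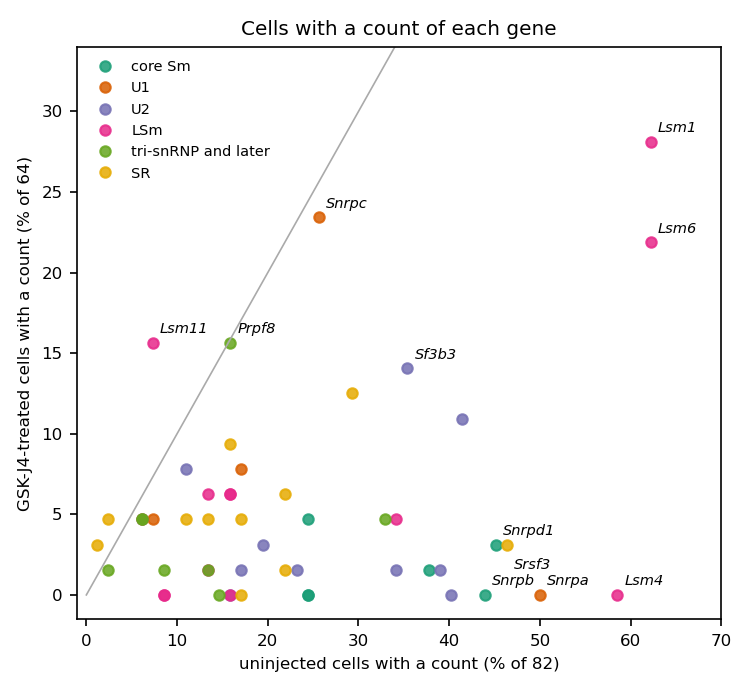
Percent of the 82 uninjected (horizontal axis) and 64 GSK-J4-treated cells (vertical axis) with a count of each of 52 spliceosome genes, coloured by role group, with the line of equal percent. *Lsm4*, *Snrpa* and *Snrpb* were found in 48, 41 and 36 of the 82 uninjected cells and in no treated cell, while *Snrpc* and *Prpf8* lie near the line and *Lsm11* above it. Cells were not thinned, and treated cells had fewer counts.

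The tri-snRNP and later factors were mostly too sparse to separate the libraries. Their 8 genes past the filter had a median log-fold of −0.11 and took 0.0180% (0.0156 to 0.0206) and 0.0139% (0.00931 to 0.020) of counts. *Prpf4b*, a kinase that phosphorylates tri-snRNP proteins, was the only one beyond the limit. It had 105 counts in 27 uninjected cells, 58 of them in 1 cell, and 3 counts in 3 treated cells, a ratio of 6.56 (2.18 to 32.3), and its exons overlap those of another annotated gene. *Prpf38b*, which joins the spliceosome before activation, had 19 and 1, and *Prpf38a* 14 and 0. *Prpf18*, of the second catalytic step, had 8 and 3, and *Prpf19*, a ubiquitin ligase of the activated spliceosome, 11 and 6 with a log-fold of 0.27 from 5 and 3 cells.

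Of the 5 retinitis pigmentosa genes in this family, *Prpf8* was the best measured. It encodes the U5 protein at the heart of the catalytic centre, and had 28 counts in 13 uninjected cells and 14 counts in 10 treated cells, 15.9% and 15.6% of cells. Its treated share was 2.67 times as high (1.30 to 5.24), with a log-fold of 0.12 within the limit. *Prpf31*, which bridges U4/U6 and U5, had 13 and 1 counts, all 13 from wells of columns 1 to 6. The U4/U6 proteins *Prpf3* and *Prpf4* had 2 and 1 counts and 0 and 2 counts, and the U5 protein *Prpf6* had 1 and 0. A difference in the last 3 was not detectable at this depth. With the main settings, none of the 3 that entered the comparison (*Prpf3*, *Prpf8* and *Prpf31*) passed the limit.

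The SR proteins had a median log-fold of −0.062, with 2 of 11 lower beyond the limit and none higher. They took 0.0419% and 0.0259% of counts. *Srsf3*, the smallest SR protein and a regulator of splicing and mRNA export, had 153 counts in 38 of 82 uninjected cells and 2 in 2 treated cells, a ratio of 14.3 (3.90 to 119) and a log-fold of −0.78. *Srsf2* had 52 counts in 14 cells and 0 in treated cells, at least 3.25-fold lower, but 33 of the 52 came from 1 cell, and its exons overlap those of *Mettl23* and *Mfsd11*. *Srsf6*, which binds exonic enhancers, had 84 counts in 24 cells and 21 in 8 cells, with a log-fold of 0.067, and 12 of the 21 came from 1 cell. The founding member *Srsf1* had 19 and 3, *Srsf7* 41 and 3, *Srsf5* 39 and 6, and *Srsf10* 33 and 1. *Srsf4* (15 and 5) and *Srsf11* (27 and 7) were also within the limit. *Srsf9* (2 and 3) and *Srsf12* (1 and 3) were among the 4 genes with more treated counts. Their treated shares were 8.01 (0.917 to 95.9) and 16.0 (1.29 to 841) times as high, on very few counts.

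Within the uninjected library the genes also differed between the sides of the plate, with the role groups in opposite directions. SR genes took 0.0658% (0.0592 to 0.0730) of counts in wells of columns 1 to 6 and 0.0187% (0.0153 to 0.0226) in columns 7 to 12. For the tri-snRNP and later factors these values were 0.0274% and 0.00882%. Core Sm genes were at 0.0337% (0.0290 to 0.0389) and 0.0545% (0.0486 to 0.0610), and U1 genes at 0.0170% and 0.0397%. Of the 36 spliceosome genes with at least 20 uninjected counts, 11 (30.6%) had over 3 times as high a share in columns 1 to 6, among them *Srsf2* (50 and 2 counts), *Srsf7* (39 and 2), *Sf3b1* (23 and 1) and *Prpf4b* (95 and 10). Another 7 (19.4%) had it in columns 7 to 12, among them *Snrpa1* (10 and 55), *Snrpb2* (1 and 27), *Snrpd2* (9 and 53) and *Lsm8*. Over all 6090 genes with that many counts the percentages were 18.9% and 17.3%, so such differences were common. This limit was chosen after the values were seen. Over all members the sides had 0.309% (0.294 to 0.324) and 0.343% (0.328 to 0.358), and the treated sides 0.198% (0.170 to 0.230) and 0.134% (0.114 to 0.156), so the treated share of all members was lower on either side. This did not hold for each role group. U1 genes had 0.0272% in treated wells of columns 1 to 6, above the uninjected value there, and the tri-snRNP and later factors 0.0133% in treated columns 7 to 12. LSm genes were at 0.101% and 0.0939% in columns 1 to 6, and SR genes at 0.0166% in treated columns 7 to 12. Core Sm genes had 184 and 309 counts on the uninjected sides and 2 and 4 on the treated sides.

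Gene length moved with the log-fold among these genes. Over the 53 members the log-fold correlated with exonic length at r = 0.46 and rho = 0.43, and over 15794 annotated genes at r = 0.23 and rho = 0.25, across genes that are not independent replicates and share the same libraries. With the genomic span the values were 0.28 and 0.32 in members and 0.22 and 0.21 in all genes. The 22 members spanning under 10 kb took 0.142% of uninjected and 0.0292% of treated counts, with 11 (50%) lower beyond the limit and 0 higher. The 24 members of 10 to 30 kb took 0.154% and 0.117%, with 6 (25%) lower and 2 (8.33%) higher. The 7 longer ones took 0.0297% and 0.0149%, with 2 (28.6%) lower and 0 higher. Of all genes in these length ranges, 18.7%, 12.5% and 6.88% were lower and 7.98%, 10.7% and 17.1% higher. Over all genes, those under 10 kb took 36.3% and 20.3% of counts and those of 30 kb or more 39.6% and 56.7%. The part of length in the differences of the spliceosome genes was not tested.

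**Figure D4:**
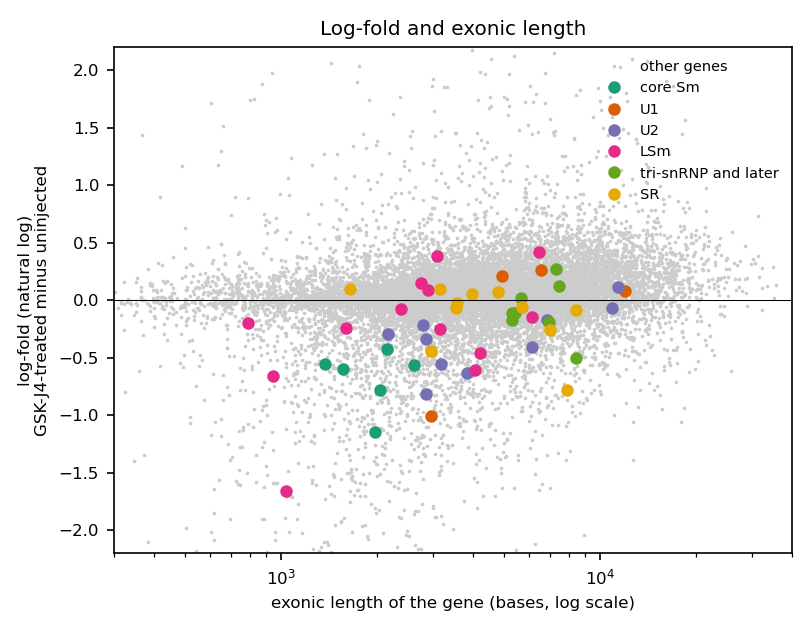
Log-fold (natural log, GSK-J4-treated minus uninjected) against exonic length of the gene (bases, log axis), for 52 spliceosome genes by role group and for other genes past the filter in grey, with 101 genes outside the plotted range. Short genes such as *Lsm4* and *Snrpb* had the lowest values among the members, and r over all 53 was 0.46.

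Genes of the same pathway under other symbols were counted in the same way. Of 88 such genes past the filter, 27 (30.7%) were lower beyond the limit and 11 (12.5%) higher, beside 11.8% and 12.6% of all genes, with a median log-fold of −0.090, and they took 0.530% and 0.395% of counts. Of 20 further snRNP genes 7 were lower and 1 higher. *Snrnp27* of the tri-snRNP had 349 and 0 counts (log-fold −1.24), *Snrnp70*, the U1-70K protein, 359 and 11 (−0.53), and the U2 helicase *Ddx46* 237 and 20 (−0.17). Of 6 genes for recognition of the branch point and 3′ splice site, 4 were lower and 1 higher. *U2af2*, which binds the polypyrimidine tract, had 248 and 0 counts (−0.83), *Puf60* 166 and 4 (−0.62) and *Rbm17* 101 and 1 (−0.47).

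Of 21 catalytic step factors 7 were lower and 1 higher, the latter being *Aqr*, a helicase-like protein of the intron-binding complex, with 20 and 35 counts (1.003). *Ppie* had 135 and 0 counts (−0.68), *Bud31* 134 and 0 (−0.51) and the second-step factor *Slu7* 161 and 50 (0.12). SR-related proteins and SR kinases had 3 of 13 lower and 2 higher, with *Srpk1*, which phosphorylates SR proteins, at 241 and 18 counts (−0.012), *Srrm2* at 102 and 64 (0.48) and *Clk4* at 135 and 21 (−0.28). The SMN complex, which loads Sm rings onto snRNAs, and its partners had 3 of 12 lower and none higher. In that list *Gemin5*, which recognizes the snRNA, had 220 and 86 counts (0.298, within the limit), *Prmt5*, which methylates Sm proteins, 104 and 23 (−0.16), and the Sm chaperone *Clns1a* 57 and 13 (−0.51). Retinal and neuronal splicing regulators had 2 of 15 lower and 6 higher, with *Msi1* at 141 and 23 (−0.65), *Ptbp1* at 81 and 20 (0.55) and *Mbnl2* at 88 and 9 (−0.43). Of the retinal disease genes under other symbols, *Cwc27* had 100 and 0 counts (−0.60), the U5 helicase *Snrnp200* 89 and 20 (−0.10) and *Rp9* 18 and 13 (−0.33).

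Beside other housekeeping families, the spliceosome genes lay between the extremes. Of 19 *Hnrnp* genes, whose products coat nascent RNA, 5 were lower and none higher, with a median log-fold of −0.058. Of 36 proteasome genes 23 were lower, with a median of −0.51. Of 94 cytosolic ribosomal protein genes 77 were lower, with a median of −1.14, and their share of counts was 15.1 times as high in uninjected cells, near the 15.4 of the core Sm genes. Across the 82 uninjected cells the spliceosome share correlated weakly with the cone marker share (r = 0.36, rho = 0.40) and with the ribosomal protein share (r = 0.30, rho = 0.32), in cells of the same library and of unequal depth.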

How the data were processed

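The authors deposited raw counts per gene and cell, which are whole numbers. Per the methods, reads were demultiplexed, aligned with the CLC Genomics Workbench v.20, cleared of PCR duplicates by an 8-nt UMI and by mapping position, and counted with featureCounts, with 3′ and 5′ counts summed. The submitters' processing notes name the genome build as GRCh38, which is a human build number, so gene positions and lengths were taken from GENCODE vM21 on GRCm38, to which 99% of the genes past the filter matched. As in the methods, genes counted in under 3 cells and cells with under 200 genes or over 5% mitochondrial counts were left out. The batch correction of the methods was not applied, and no doublet caller was run since wells held 1 sorted cell. No cell name was shared by the libraries.

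Log-folds were computed with Python 3.11.15, numpy 2.4.6, pandas 2.3.3 and scipy 1.17.1 from counts scaled to 10000 per cell, with a pseudocount of 1, and the code was tested on simulated data. Shares have exact binomial and count ratios exact conditional 95% intervals. Log-fold intervals combine Poisson intervals of weighted sums. A gene at 0 was set at a floor of 3 counts over the library, which gives no 95% limit. Values are given for the 3 genes with the most counts of each list, the 5 highest and 5 lowest log-folds among members in at least 10% of the cells of a library, every member with more treated counts and the retinal disease members, beside counts of other members, of which 1 is not reported here. The members and lists were chosen with earlier results of these data known. Alternatives changed the filters, weighting, scaling, depth, pseudocount, plate side and the deepest cell. Leaving out the highest cell of each gene was added after seeing the data.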

Additional observations from a re-analysis of the deposited data

How the results depend on the processing

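Of the 19 spliceosome genes that were lower beyond the limit, 17 had a negative log-fold under each of the 10 alternatives, and 8 stayed beyond the limit in all of them (*Lsm4*, *Sf3a1*, *Sf3b5*, *Sf3b6*, *Snrpa*, *Snrpb*, *Snrpd1* and *Snrpg*). The exceptions were *Lsm6*, at 0.22 in wells of columns 1 to 6, and *Lsm8*, which had no count there. The number of lower genes was 16 to 21, apart from 30 with a pseudocount of 0.1, which also gave 12 higher genes and a median log-fold of −0.76, where 28.2% of all genes were lower and 44.1% higher, with a median of 0.18. With summed libraries 30.2% of the members were lower, and with median-ratio scaling 39.6%, beside 11.1% and 16.2% of all genes. The number of higher genes was 4 (7.55%) after thinning, beside 16.1% of all genes. It was 0 with median-ratio scaling, where only 3.96% of all genes were higher. It was also 0 without the highest cell of each gene, a setting chosen after seeing the data. *Lsm1* turned negative at −0.58 with at least 500 genes per cell, −0.15 with median-ratio scaling, −0.16 after thinning, −0.55 in wells of columns 7 to 12 and −0.33 without its highest cell. The share of counts on spliceosome genes, uninjected and treated, was 0.414% and 0.180% after thinning, 0.309% and 0.198% in columns 1 to 6, 0.343% and 0.134% in columns 7 to 12, and 0.223% and 0.0868% without the highest cell of each gene. Of 530 log-folds under alternatives, 53 had the opposite sign, of which 6 were of genes beyond the limit (*Lsm1* and *Lsm6*). Depth limits the treated library, where a gene at 0 may reach 0.144 counts per 10000. No paired analysis was possible because each group has 1 library.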
